A study of Caenorhabditis elegans with 24 samples.

Results

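How far the change of each transcript with age differed between a long-lived strain of Caenorhabditis elegans and the wild type was measured by a strain by age contrast. The contrast takes the change from day 1 to day 11 of adulthood in daf-2 and subtracts the same change in N2, on the log2 scale, so that a positive value means that the change with age was higher in daf-2. It rests on 12 of the 24 libraries of the study, 3 in each of 4 groups, and was computed for all 16698 genes that passed a filter on low counts. The groups were whole worms of N2, labelled wild type, at days 1 and 11, and whole worms of CF1041, which carries the allele daf-2(e1370), at the same ages. All 4 groups were grown on OP50 bacteria and were given the DNA synthesis inhibitor FUDR at 50 µM from the last larval stage, so each group was sterilised by a drug, and each library is a population of whole animals in which fewer cells of a type and less RNA per cell cannot be told apart. Nothing in the labels tells whether replicate libraries were made from different cultures, and the p-values therefore speak of the spread among these libraries, part of which may be technical. Of the 21 listed genes of the intestine, 42 of muscle and 36 of neurons, none was at 0 in any of the 4 groups. The 12 libraries held 23644502 to 32655703 counts, and ribosomal RNA took 3.9% to 14.6% of them. The libraries numbered 3 had the highest ribosomal shares, 11.8% to 14.6%.

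DAF-2 is the worm's insulin and IGF-1 receptor. Active DAF-2 signals through a phosphoinositide kinase and AKT to keep the FOXO transcription factor DAF-16 out of the nucleus. With reduced receptor function DAF-16 enters the nucleus, worms live longer, and genes for stress resistance such as sod-3, a mitochondrial superoxide dismutase, and mtl-1, a metallothionein, are raised, while others such as the insulin-like peptide gene ins-7 are lowered. The intestine is the main metabolic and immune tissue of the worm and a major site of DAF-16 action.

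Most of the change with age was shared. In N2, 6958 genes changed (41.7% of those tested, 3750 or 22.5% higher and 3208 or 19.2% lower at day 11), and in daf-2, 6722 changed (40.3%, 3716 or 22.3% higher and 3006 or 18% lower), by edgeR's quasi-likelihood test at a false discovery rate of 0.05. Of these, 5044 changed in both strains, and 10 of the 5044 did so in opposite directions. With the replicate number as a block, 9491 genes changed in N2 and 9487 in daf-2. The median size of the change was 0.66 log2 units in N2 and 0.61 in daf-2, against 0.26 for the difference between the strains. Across genes the changes of the strains had a Pearson r of 0.80 and a Spearman rho of 0.82, given as a description since genes are not independent replicates.

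In the edgeR fit without a replicate block, the change with age differed between the strains for 58 genes, 0.347% of those tested. It was lower in daf-2 for 44 genes (0.264%) and higher in daf-2 for 14 (0.0838%). DESeq2 called 169 genes, and a fit of the 4 groups without the other 12 libraries called 18. A fit with the replicate number as a block called more genes than any of these and is given with the alternatives at the end. At an unadjusted p under 0.05 edgeR gave 1301 genes (7.79%). The median standard error of the contrast was 0.43 log2 units, the smallest value called was 1.08, and 31 of the 58 differed at least 4-fold, and no difference under 2-fold was called. Within each of the replicate numbers the contrast had the same sign as the whole for all 58 genes. The 58 were picked on these same libraries, so the shared sign only describes them.

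The number of calls depended on single libraries. Leaving out 1 N2 day 1 library gave 21 calls without library 1, 20 without library 2 and 99 without library 3. Without N2 day 11 library 1 or 2 there were 24 and 27 calls. Without daf-2 day 1 library 1, 2 or 3 there were 29, 30 and 27, and without daf-2 day 11 library 1 or 2 there were 19 and 21. Without all the libraries numbered 3 there were 140 calls, 42 of them among the 58. All 58 genes kept their direction in every one of these fits, and 14 genes were called in all 12 fits that leave out 1 library. For the others, a number out of 12 gives the fits in which a gene was called. The 14 were far-3, ins-7, ugt-18, nspc-20, ifb-2, F15B9.6, R05H10.7, T20G5.8, F38B6.4, F53A9.6, F57H12.6, K12H4.7, R07C12.1 and H39E23.3, and these were also called without all the libraries numbered 3, except K12H4.7 (adjusted p = 0.0785). Not all of them were called in the fit of the 4 groups. There, for example, far-3, ins-7 and nspc-20 had an adjusted p of 0.0693, 0.148 and 0.108.

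**Figure D1:**
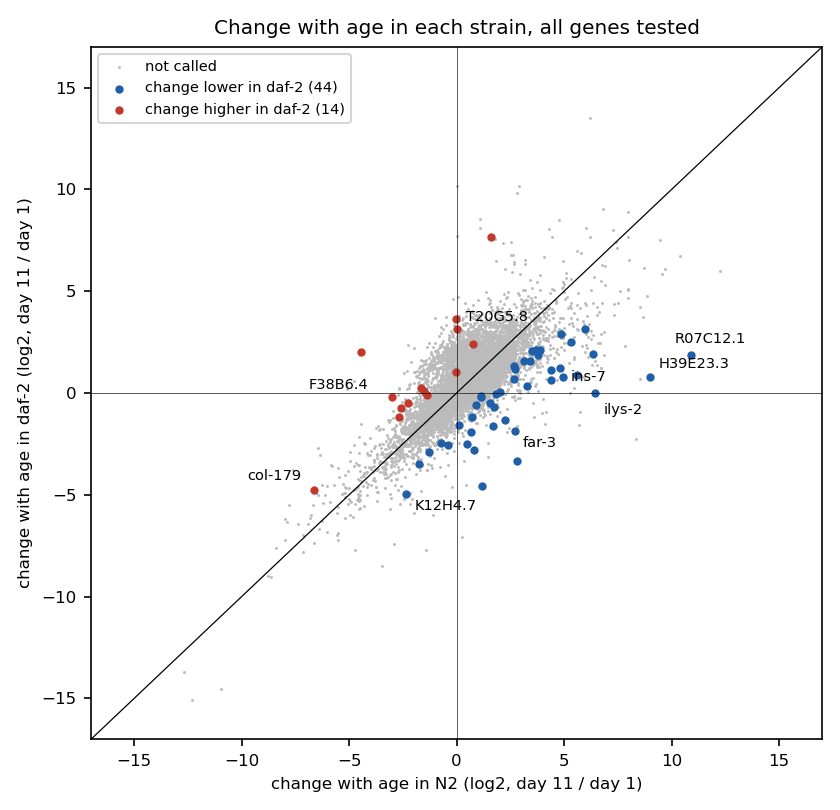
Change from day 1 to day 11 in N2 (horizontal axis) and in daf-2 (vertical axis), in log2 units, for all 16698 genes tested; each point is a gene and the diagonal marks an equal change. Most genes lie along the diagonal, the 44 blue genes lie below it and the 14 red genes above it; for R07C12.1 the N2 value was fitted against a group at 0 counts.

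Of the 44 genes with a lower change in daf-2, 33 were lower in daf-2 at day 11 (2.24% of all genes tested were), and 11 were already higher in daf-2 at day 1 (1.14% were). In N2, 34 of the 44 rose with age, 4 fell and 6 were not called. In daf-2, 14 rose, 16 fell and 14 were not called. Of the 14 genes with a higher change in daf-2, 9 fell in N2, 9 were higher in daf-2 at day 11 (1.71% of all were) and 4 were lower in daf-2 at day 1 (0.611% were). The calls of each contrast share libraries with the strain by age value, so these counts only describe it. Over all genes the strains differed for 293 genes at day 1 (1.75%) and 659 at day 11 (3.95%). With the replicate number as a block these counts were 663 and 1615. The day 1 count was 189, 190 and 168 without N2 library 1, N2 library 2 and daf-2 library 2, and the day 11 count was 381 without daf-2 library 2 and 1000 without all libraries numbered 3.

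The first group of genes rose with age in N2 and stayed low in daf-2. ins-7, on chromosome IV from 9682011 to 9682845 of WBcel235, encodes an insulin-like peptide known as an agonist of DAF-2 and as a gene that DAF-16 represses. Levels of genes are those of the day 1 and day 11 libraries unless another day is named. In CPM, the counts scaled to a common library size, the level of ins-7 in N2 was 1.13, 2.11 and 2.81 at day 1 and 63.5, 55.8 and 68.3 at day 11. In daf-2 it was 1.09, 0.695 and 0.548 at day 1 and 0.954, 0.236 and 2.97 at day 11. All N2 libraries at day 11 lay far above every other library of the 12. The rise in N2 was 30.7-fold (log2 4.94 ± 0.52 SE, adjusted p = 3.31e-07), the change in daf-2 was 0.81 ± 0.52 (adjusted p = 0.223), and the difference was -4.13 ± 0.71 (adjusted p = 0.0132). Without 1 library its adjusted p reached at most 0.0497. In the fit of the 4 groups without the other 12 libraries ins-7 was not called (adjusted p = 0.148). Its mean at days 1, 4, 7 and 11 was 2.02, 4.43, 20.7 and 62.5 CPM in N2 and 0.779, 1.6, 1.96 and 1.39 CPM in daf-2, as the plot of levels by age shows.

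A lysozyme gene, ilys-2, and the C-type lectin genes clec-60 and clec-146 also had a lower change in daf-2. ilys-2 encodes an invertebrate lysozyme, an enzyme that breaks down bacterial cell walls. It measured 0.084, 0.0414 and 0.728 CPM in N2 at day 1 and 46.5, 20.2 and 12.9 at day 11, while the daf-2 libraries lay between 0.0589 and 0.451 at both ages. Its difference was -6.44 ± 1.19 (adjusted p = 0.0187), called in 7 of the 12 fits that leave out 1 library, with a highest adjusted p of 0.0798 without daf-2 day 1 library 3. clec-60, a C-type lectin gene, rose in both strains, from 0.0414 to 0.168 CPM to 5.87 to 14.6 CPM in N2 and from 0.347 to 0.911 CPM to 1.21 to 2.75 CPM in daf-2. The difference was -4.40 ± 0.78 (adjusted p = 0.0144), called in 10 of 12. clec-146, another C-type lectin gene, measured 15.5, 16.7 and 27.5 CPM in N2 and 18.7, 14.4 and 24.5 in daf-2 at day 1. At day 11 it measured 228, 231 and 218 CPM in N2 and 77.2, 69.1 and 94.4 in daf-2. The groups overlapped at day 1 and were apart at day 11, with a difference of -1.43 ± 0.31 (adjusted p = 0.0482), called in 2 of 12.

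Several other genes rose in both strains and rose less in daf-2. F53A9.6, a gene on chromosome X, measured 3.23, 2.36 and 2.25 CPM in N2 and 3.17, 4.06 and 3.9 in daf-2 at day 1. At day 11 it measured 23.7, 35.4 and 25.2 CPM in N2 and 10.9 ± 0.112 (SD, n = 3) in daf-2. The difference was -1.88 ± 0.28 (adjusted p = 0.0053). cpt-4, of the carnitine palmitoyltransferase family that brings fatty acids into mitochondria for oxidation, went from 0.546 to 1.52 CPM to 52.5 to 78.3 CPM in N2, and from 0.656 to 2.16 CPM to 6.98 to 14 CPM in daf-2. Its difference was -2.84 ± 0.62 (adjusted p = 0.0482), called in 2 of 12. siah-1, an E3 ubiquitin ligase gene, rose from 13.7 to 18.1 CPM to 100 ± 22.1 CPM (SD, n = 3) in N2, and from 16.1 to 19.6 CPM to 38.4 to 42.9 CPM in daf-2. Its difference was -1.55 ± 0.30 (adjusted p = 0.0294), called in 4 of 12. Y53F4B.45, the non-coding RNA among the 58, rose from 4.75 to 6.35 CPM to 122 to 220 CPM in N2, and from 6.31 to 7.8 CPM to 40.2 to 69.5 CPM in daf-2, a difference of -2.0 ± 0.36 (adjusted p = 0.0162, called in 8 of 12). It lies opposite trip-4 on the other strand, and whether strand was used in the counting is not given in the sources used here.

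Y41G9A.10 also rose less in daf-2 (-1.76 ± 0.34, adjusted p = 0.0271, called in 4 of 12), as did coel-1 (-1.38 ± 0.30, adjusted p = 0.0487, called in 1 of 12). F19C7.2 was lower in daf-2 at both ages, and by more at day 11. It measured 6.64, 4.51 and 6.19 CPM in N2 and 1.46, 1.22 and 2.29 CPM in daf-2 at day 1, and 73.8, 89.4 and 58.9 CPM against 6.65, 8.49 and 6.22 CPM at day 11. The strains did not overlap at either age, and the difference in change was -1.58 ± 0.34 (adjusted p = 0.0419, called in 3 of 12). R07C12.1 had no count in the 3 N2 libraries of day 1 and 11.2, 8.71 and 5.23 CPM in N2 at day 11. With a floor of 3 counts for that group, it was at least 241-fold higher in N2 at day 11. In daf-2 it held 0.0729 to 0.104 CPM at day 1 and 0.254 to 0.429 CPM at day 11, a rise of 1.86 ± 0.60 (adjusted p = 0.0187). The contrast passed the test at an adjusted p of 0.0053, and its fitted size depends on the prior count of the fit.

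The smaller changes of this kind included tyrosinase family and uncharacterised genes. tyr-4 measured 92.5 to 118 CPM in N2 and 120 to 130 CPM in daf-2 at day 1. At day 11 it measured 198 to 241 CPM in N2 and 103 to 120 CPM in daf-2. N2 rose by 1.14 ± 0.20 (adjusted p = 0.000148), the change in daf-2 was -0.16 ± 0.20 (adjusted p = 0.555) and the difference was -1.30 ± 0.28 (adjusted p = 0.0487), called in 1 of 12. kreg-1, a gene near F53A9.6 that is known as a target of the stress kinase KGB-1, rose in N2 from 0.124 to 0.397 CPM to 2.17 to 2.93 CPM, and lay between 0.328 and 0.7 CPM in daf-2 at both ages. Its difference was -2.94 ± 0.61 (adjusted p = 0.0374, called in 2 of 12). Other genes that rose in N2, with no call in daf-2, were Y46H3A.5, F48C1.9, E04D5.4, W03G1.5, Y54G2A.7, F47E1.2 and M176.4, with differences from -4.71 to -1.32. E04D5.4 was called in 9 of 12, Y46H3A.5 in 6, F47E1.2 in 4, W03G1.5 and Y54G2A.7 in 3, M176.4 in 2 and F48C1.9 in 1.

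**Figure D2:**
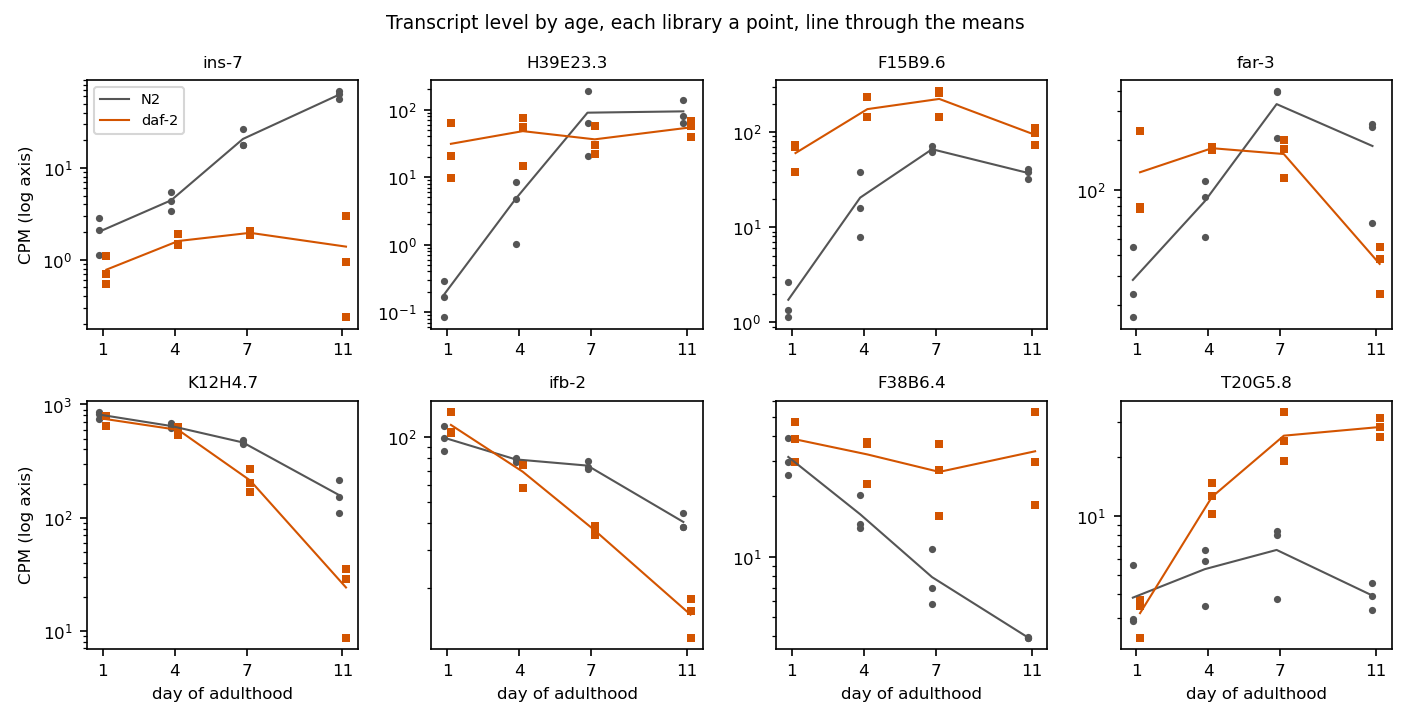
Level of 8 genes in CPM (log axis) against day of adulthood, with each library as a point (N2 in grey circles, daf-2 in orange squares) and lines through the group means. ins-7 rose in N2 and was not called in daf-2, H39E23.3 and F15B9.6 began high in daf-2, far-3 ended lower in daf-2 than in N2, K12H4.7 and ifb-2 fell further in daf-2, F38B6.4 fell in N2 and T20G5.8 rose in daf-2.

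A second group was already high in young daf-2 worms and rose in N2 with age. H39E23.3, on chromosome V from 14107811 to 14110051, measured 0.084, 0.289 and 0.165 CPM in N2 at day 1 and 137, 81.7 and 64.3 at day 11. In daf-2 it measured 9.8, 63.4 and 20.3 CPM at day 1 and 56.8, 39.1 and 67.8 at day 11. The strains were apart at day 1, by 7.41 log2 units (adjusted p = 0.000444), and overlapped at day 11 (adjusted p = 0.781). Its difference in change was -8.20 ± 1.34 (adjusted p = 0.00755). F15B9.6 rose in N2 from 1.13, 1.36 and 2.68 CPM to 32.5, 38 and 41.2 CPM. In daf-2 it measured 38.4, 69.5 and 72.8 CPM at day 1 and 110, 72.9 and 98.1 at day 11, with a change of 0.64 ± 0.40 (adjusted p = 0.208). Between these ages its mean at days 4 and 7 was higher in daf-2, at 175 and 224 CPM, against 20.4 and 66.1 CPM in N2. Its difference was -3.77 ± 0.60 (adjusted p = 0.00733), and the lowest daf-2 library at day 1 lay above 2 of the 3 N2 libraries at day 11.

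ugt-18, of the UDP-glucuronosyltransferases that attach sugars to small molecules for excretion, rose in both strains from different starting levels. It measured 1.13, 0.703 and 1.79 CPM in N2 and 6.52, 9.52 and 4.64 in daf-2 at day 1. At day 11 it measured 17.2, 22.5 and 38.1 CPM in N2 and 13.7, 13.1 and 18.5 in daf-2. Its mean at days 4 and 7 was 31.1 and 36.6 CPM in daf-2 and 5.34 and 24 CPM in N2. The strains did not overlap at day 1 and overlapped at day 11, with a difference in change of -3.27 ± 0.54 (adjusted p = 0.00755). ZC443.4, on the other strand and 373 bases from the start of ugt-18 on chromosome V, rose from 2.56 to 3.87 CPM to 27.7 to 33.5 CPM in N2 and from 6.41 to 9.19 CPM to 21.2 to 24.4 CPM in daf-2. Its difference was -1.56 ± 0.29 (adjusted p = 0.0215, called in 7 of 12). Other genes that were higher in daf-2 at day 1 and rose in N2 were F21H7.12 and W03G1.5 (each called in 3 of 12), C08F11.7 (2 of 12) and F43G6.17 (1 of 12), and far-3 and ins-10, which fell in daf-2.

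R05H10.7 was highest in young daf-2 worms. It measured 4.92, 4.79 and 2.77 CPM there, and between 0.0414 and 0.293 CPM in the other 9 libraries. It fell in daf-2 by 4.58 ± 0.55 on the log2 scale (adjusted p = 2.26e-06) and its change in N2 was 1.2 ± 0.70 (adjusted p = 0.176). The difference was -5.78 ± 0.88 (adjusted p = 0.0053).

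ifb-2, pept-1 and K12H4.7 fell in both strains, and fell further in daf-2. ifb-2, on chromosome II from 5750188 to 5754140, encodes an intermediate filament of the intestinal brush border. It measured 99.7, 86.1 and 113 CPM in N2 and 105, 131 and 106 in daf-2 at day 1, and 38.6, 38.5 and 44.5 CPM against 17.8, 11.8 and 15.7 CPM at day 11. It fell in both strains, by 1.3 ± 0.16 in N2 (adjusted p = 1.65e-06) and by 2.92 ± 0.16 in daf-2 (adjusted p = 1.48e-10), and the difference of -1.62 ± 0.22 had the lowest adjusted p of all genes tested, 0.00447. pept-1, the intestinal transporter of small peptides from food, measured 26.3 to 47.9 CPM in N2 and 31.9 to 38.9 CPM in daf-2 at day 1. At day 11 it measured 9.37, 16.6 and 7.22 CPM in N2 and 4.01, 2.68 and 2.82 CPM in daf-2. The difference was -1.75 ± 0.38 (adjusted p = 0.0442, called in 2 of 12). K12H4.7 fell from 750, 832 and 860 CPM to 109, 153 and 214 CPM in N2 and from 645, 785 and 794 CPM to 35, 8.66 and 28.7 CPM in daf-2. The day 11 groups did not overlap, and the difference was -2.59 ± 0.45 (adjusted p = 0.0133).

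2 lysosomal protease genes fell in daf-2 and were not called in N2. asp-1, an intestinal aspartic protease gene, measured 2296, 2008 and 1688 CPM in N2 at day 1 and 1308, 1567 and 1655 at day 11, a change of -0.40 ± 0.31 (adjusted p = 0.306). In daf-2 it fell from 1575, 1501 and 1234 CPM to 280, 168 and 277 CPM. The difference was -2.17 ± 0.44 (adjusted p = 0.0338), but the call held in none of the 12 fits that leave out 1 library, with adjusted p from 0.0527 to 0.11. cpr-4, a cathepsin B-like protease gene, measured 135, 59.5 and 31.6 CPM in N2 at day 1 and 161, 120 and 114 at day 11. In daf-2 it fell from 32.9, 38.2 and 20 CPM to 6.65, 2.18 and 4.08 CPM, a difference of -3.62 ± 0.73 (adjusted p = 0.0338, called in 5 of 12). nspc-20, of a family of small nematode-specific peptides, measured 14.4 to 43 CPM in all 6 N2 libraries and fell in daf-2 from 13.6, 9.72 and 18.1 CPM to 2.58, 1.09 and 3.57 CPM. Its difference was -3.01 ± 0.49 (adjusted p = 0.00755), and its counts are uncertain because the family holds near-identical copies among which reads can be divided. tyr-2, a tyrosinase family gene, measured 7.86 to 13.7 CPM in all 6 N2 libraries and fell in daf-2 from 12.2 to 19.2 CPM to 4.42 to 6.58 CPM (difference -1.68 ± 0.32, adjusted p = 0.0245, called in 6 of 12). F55H12.4 fell in both strains, with a difference of -1.68 (adjusted p = 0.0385, called in 2 of 12), and Y47H9C.1 in daf-2, with one of -2.58 (adjusted p = 0.0359, called in 3 of 12).

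Some genes changed in opposite directions. far-3, on chromosome V from 12996787 to 12997522, belongs to a family of secreted proteins that bind fatty acids and retinol. It measured 16.8, 23.1 and 45 CPM in N2 at day 1 and 240, 62.7 and 250 at day 11, and in daf-2 76.5, 78.3 and 228 CPM at day 1 and 44.8, 23.3 and 38.1 at day 11. N2 rose by 2.7 ± 0.51 (adjusted p = 0.000272) and daf-2 fell by 1.85 ± 0.49 (adjusted p = 0.0055), so that the strains exchanged order between the ages without overlap at either, and the difference was -4.55 ± 0.71 (adjusted p = 0.00648). The gene far-5 overlaps far-3 on the other strand and held 3519 counts over the 12 libraries against 35103 for far-3. F57H12.6 rose in N2 from 0.786 to 1.95 CPM to 3.64 to 16 CPM and fell in daf-2 from 2.47 to 8.19 CPM to 0.206 to 0.965 CPM, a difference of -6.14 ± 0.98 (adjusted p = 0.00733).

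The other genes of this kind held less firmly. glc-1, a subunit of a glutamate-gated chloride channel, measured 23.6 to 41.8 CPM in N2 and 28.8 to 39.3 CPM in daf-2 at day 1. At day 11 it measured 44.6 to 78.5 CPM in N2 and 20.4 to 23.3 CPM in daf-2 (difference -1.50 ± 0.31, adjusted p = 0.0385, called in 2 of 12). lipl-3, a lysosomal lipase gene, rose in N2 from 0.924 to 2.15 CPM to 1.89 to 7.55 CPM and fell in daf-2 from 4.01 to 4.74 CPM to 0.501 to 2 CPM (difference -3.30 ± 0.69, adjusted p = 0.0377, called in 2 of 12). ins-10, an insulin-like peptide gene, lay at 0.084 to 0.964 CPM in N2 and 0.795 to 3.32 CPM in daf-2 (difference -3.59 ± 0.71, adjusted p = 0.0322, called in 3 of 12). It overlaps vps-39 on the other strand, which held 118889 counts against 337. K10D11.6 rose in N2 from 4.75 to 8.5 CPM to 10.7 to 11 CPM and fell in daf-2 from 8.57 to 10 CPM to 3.01 to 4.96 CPM (difference -1.90 ± 0.35, adjusted p = 0.0187, called in 9 of 12).

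**Figure D3:**
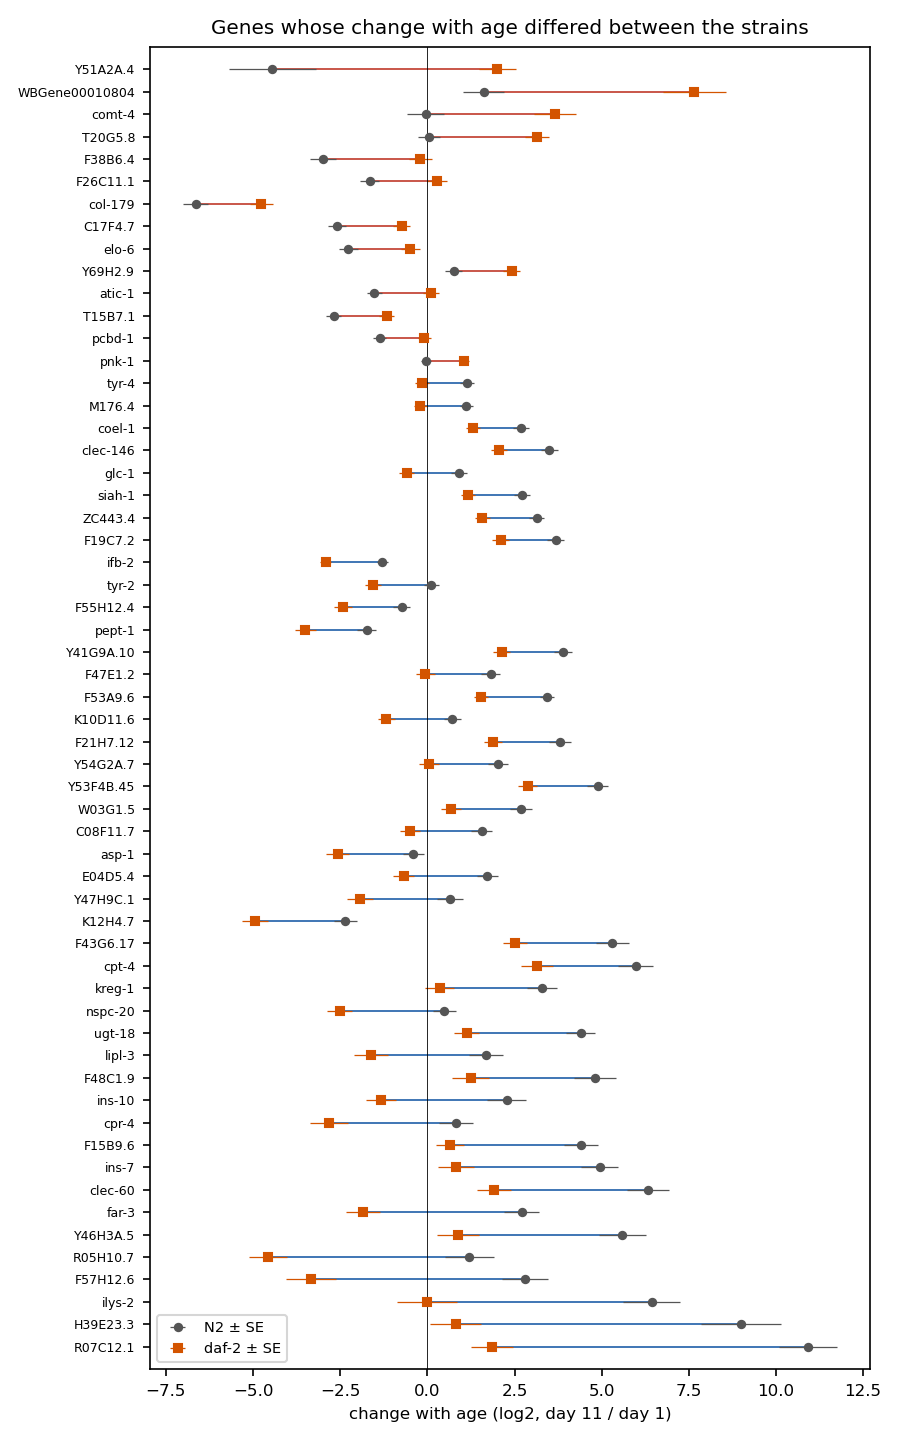
Change from day 1 to day 11 (log2) with its standard error in N2 (grey circles) and daf-2 (orange squares) for the 58 genes called, ordered by the difference; blue bars join genes with a lower change in daf-2 and red bars those with a higher one. For R07C12.1, Y51A2A.4 and WBGene00010804 a group was at 0 counts, so their fitted values depend on the prior count.

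Of the 14 genes whose change was higher in daf-2, 9 fell in N2, and 5 of the 9 were not called in daf-2. F38B6.4, on chromosome X from 6674869 to 6679848, fell in N2 from 39.1, 25.6 and 29.8 CPM to 3.95, 3.94 and 3.98 CPM. In daf-2 it measured 38.9, 47.2 and 29.6 CPM at day 1 and 29.8, 52.9 and 18.2 at day 11, a change of -0.20 ± 0.33 (adjusted p = 0.665). The strains overlapped at day 1 and were apart at day 11, and the difference was 2.79 ± 0.49 (adjusted p = 0.0133). atic-1 encodes the enzyme of the last steps of purine synthesis. It measured 80.8, 66.5 and 92.2 CPM in N2 at day 1 and 28.3, 29.5 and 25.8 at day 11, against 91.1, 120 and 98.2 CPM and 108, 127 and 96.3 CPM in daf-2. The difference was 1.62 ± 0.31 (adjusted p = 0.0245, called in 4 of 12).

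elo-6, a fatty acid elongase gene of branched-chain fatty acid synthesis, fell in N2 from 163 ± 52.7 CPM (SD, n = 3) to 32.3, 27 and 42 CPM. In daf-2 it measured 116 to 232 CPM at day 1 and 78.8 to 138 CPM at day 11, so that those groups overlapped, and the difference was 1.78 ± 0.38 (adjusted p = 0.0428, called in 4 of 12). pcbd-1, a pterin dehydratase gene that recycles the cofactor of aromatic amino acid hydroxylases, fell in N2 from 24.4 to 36.5 CPM to 11.6 ± 0.977 CPM (SD, n = 3) and measured 25.2 to 38.2 CPM in the 6 daf-2 libraries. The difference was 1.28 ± 0.27 (adjusted p = 0.0377, called in 3 of 12). C17F4.7 fell in N2 from 718, 705 and 667 CPM to 91.6, 154 and 103 CPM, and in daf-2 from 792, 1067 and 768 CPM to 598, 501 and 473 CPM. The difference was 1.84 ± 0.34 (adjusted p = 0.0187, called in 6 of 12).

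Cuticle collagen col-179 had the deepest fall among these genes in both strains. It went from 1105, 526 and 553 CPM to 5.77, 9.85 and 6.18 CPM in N2, and from 646, 410 and 608 CPM to 22.1, 21.5 and 17.2 CPM in daf-2. It fell by 6.65 ± 0.37 on the log2 scale in N2 and fell by 4.77 ± 0.33 in daf-2, a difference of 1.88 ± 0.41 (adjusted p = 0.0487, called in 2 of 12). T15B7.1 and F26C11.1 were lower in daf-2 at day 1 and fell in N2, with differences of 1.51 (adjusted p = 0.0317, called in 3 of 12) and 1.93 (adjusted p = 0.0374, called in 4 of 12).

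T20G5.8, comt-4 and pnk-1 rose in daf-2 and were not called in N2. T20G5.8, on chromosome III from 10199352 to 10199859, measured 2.91 to 5.59 CPM in the 6 N2 libraries. In daf-2 it rose from 3.46, 3.72 and 2.39 CPM to 25.3, 31.4 and 28.2 CPM, a change of 3.15 ± 0.34 (adjusted p = 5.81e-07), and the difference was 3.11 ± 0.46 (adjusted p = 0.0053). comt-4, of the catechol O-methyltransferase family, measured 2.99 to 13.1 CPM in the N2 libraries of days 1 and 11. In daf-2 it went from 1.42, 1.74 and 2.68 CPM to 40.9, 7.54 and 25.5 CPM. The lowest daf-2 library at day 11 lay within that N2 range (difference 3.70 ± 0.77, adjusted p = 0.0385, called in 3 of 12). At days 4 and 7 the means of comt-4 were 32 and 33.7 CPM in N2 and 8.65 and 30.4 CPM in daf-2, so N2 was also high between the 2 ages compared. pnk-1 encodes pantothenate kinase, which starts the synthesis of coenzyme A. It measured 125 to 163 CPM in the N2 libraries of days 1 and 11, and in daf-2 it rose from 165, 165 and 162 CPM to 334, 405 and 276 CPM. The difference was 1.08 ± 0.22 (adjusted p = 0.0338, called in 2 of 12).

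The remaining genes with a higher change were Y69H2.9 and 2 of very low level. Y69H2.9 rose in both strains, with a difference of 1.67 ± 0.34 (adjusted p = 0.0374, called in 1 of 12). Y51A2A.4 held 7 counts in N2 at day 1 and none at day 11, which with that floor is at least 2.61-fold lower, and in daf-2 it held 25 and 110 counts (adjusted p = 0.0385 for the contrast, called in 1 of 12). The pseudogene WBGene00010804 held no count in daf-2 at day 1 and 81 at day 11, at least 26.6-fold higher with that floor, and 8 and 31 counts in N2 (adjusted p = 0.0385, called in 2 of 12).

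Of 8 genes often followed in studies of daf-2, edgeR called ins-7, and the other 7 were not called with all libraries. The daf-2 transcript itself had a difference of -0.30 ± 0.37 (adjusted p = 1) and daf-16 one of 0.05 ± 0.51 (adjusted p = 1), a level test that says nothing of the e1370 allele, which alters the protein. sod-3 measured 6.22, 5.42 and 8.6 CPM in N2 and 29.9, 36.8 and 25.9 CPM in daf-2 at day 1, and 2.34, 3.02 and 3.33 CPM against 13.3, 20.2 and 8.69 CPM at day 11. It was higher in every daf-2 library at both ages, by 2.19 and 2.28 log2 units (adjusted p = 0.000191 and 7.58e-05), fell in both strains, and had a difference of 0.09 ± 0.42 (adjusted p = 1). mtl-1 rose by 5.11 ± 0.63 in N2 and 5.63 ± 0.60 in daf-2, with a difference of 0.52 ± 0.78 (adjusted p = 1). tts-1, a long non-coding RNA known to be abundant in daf-2 worms, measured 17, 75.3 and 129 CPM in N2 and 250, 628 and 501 CPM in daf-2 at day 1, and 1808, 2259 and 2258 CPM against 2424, 3261 and 3319 CPM at day 11. The strains were apart at day 1 (2.64, adjusted p = 0.00106) and the difference in change was -2.13 ± 0.59 (adjusted p = 0.157). DESeq2 called tts-1 (adjusted p = 0.0371), and edgeR did so without N2 day 1 library 3 (adjusted p = 0.0218). hsp-16.2, of the small heat shock family, and the yolk protein gene vit-2 had differences of -1.79 ± 1.33 (adjusted p = 0.945) and -1.14 ± 0.80 (adjusted p = 0.912).

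Gene lists are given by their counts and medians, beside a median of 0.00 and 0.347% called over all genes tested. Of all genes tested, 49.5% had a value above 0. Among 27 insulin-like peptide genes, 2 had a lower change in daf-2 (ins-7 and ins-10) and none a higher one, with a median of -0.56 (-0.34 without daf-2 day 1 library 3) and 22 values below 0. Among 19 genes of the insulin signalling pathway none was called in either direction (median -0.16). Of 20 genes known to be raised by DAF-16 none was called, and the sign of their median of -0.25 rested on single libraries (-0.67 to 0.23 with 1 library left out). Leaving out library 1 of N2 at day 1 gave 0.08, library 3 of N2 at day 11 gave 0.13, library 3 of daf-2 at day 1 gave 0.23 and library 1 of daf-2 at day 11 gave 0.14. Of 12 known to be lowered by it, 2 had a lower change in daf-2, ins-7 and pept-1 (median -0.88, or -0.36 without N2 day 11 library 2), and the highest values of that list, dod-21 at 3.77 ± 2.0 and dod-24 at 2.46 ± 0.71, were not called (adjusted p = 0.735 and 0.205).

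Genes of defence and digestion had medians below 0. Among 78 antimicrobial genes 1 was called lower, ilys-2, and 67 values lay below 0 (median -1.01). The median change with age in that list was 0.94 in N2 and 0.21 in daf-2. The median member measured 4.01, 3.91 and 7.44 CPM in N2 at day 1 and 8.18, 8.32 and 9.57 CPM at day 11, and 4.48, 3.25 and 5.66 CPM against 5.88, 4.49 and 7.01 CPM in daf-2. Of 142 C-type lectin genes 2 were called lower and none higher (median -0.30). Of 23 lysosomal protease genes 2 were called lower, asp-1 and cpr-4 (median -0.61), and of 21 intestinal genes 3 were called lower, asp-1, ifb-2 and pept-1 (median -0.38). In the intestinal list elt-2, the transcription factor that specifies the tissue, had a value of 0.03 and the gut esterase ges-1 one of 0.33. None of the 6 vitellogenin genes was called (median -1.03, or -0.55 without N2 day 11 library 2).

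Sperm genes had the highest median of the lists. None of 82 was called, while 72 values lay above 0 (median 2.17) and 39 had an unadjusted p under 0.05. The median change with age was -0.88 in N2 and 1.25 in daf-2. By calls, however, 11 of the 82 rose and 6 fell in N2, while 22 rose and 0 fell in daf-2. Over all genes tested, 22.5% rose and 19.2% fell in N2, and 22.3% rose and 18% fell in daf-2. At earlier ages the median strain by age value of the list was 0.17 (day 4) and -0.29 (day 7). The median member measured 3.72, 0.765 and 3.61 CPM in N2 at day 1 and 2.5, 1.07 and 0.386 CPM at day 11. In daf-2 it measured 1.02, 0.677 and 3.11 CPM at day 1 and 5.71, 4.17 and 2.61 CPM at day 11. The median of the contrast was 2.80, 1.90 and 2.44 within replicate numbers 1, 2 and 3. The values of the median member overlapped between the ages within each strain, 20 of the 82 had a mean under 1 CPM, and the msp genes that make up much of the list are near-identical copies. The median lay between 1.76 and 3.27 when 1 library was left out, the latter without N2 day 11 library 1.

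All 12 protein genes of the mitochondrial genome had values above 0 (median 0.76), and none was called. Their median change was -1.48 in N2, where 10 of the 12 fell, and -0.63 in daf-2, where 1 fell. Over all genes tested, 19.2% fell in N2 and 18% in daf-2. The median member measured 558, 397 and 629 CPM in N2 at day 1 and 192, 106 and 322 CPM at day 11, and 331, 146 and 888 CPM against 232, 282 and 510 CPM in daf-2. The median of the contrast was 1.33, 1.66 and 0.23 within replicate numbers 1, 2 and 3, and was 1.15 without N2 day 11 library 3, 1.53 without daf-2 day 1 library 3 and 0.50 without daf-2 day 11 library 3. The nuclear genes of the respiratory chain (76, median 0.04) and of the mitochondrial ribosome (70, median 0.11) had no call.

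Structural and housekeeping lists had medians near 0, but the signs were uneven in several. Values above 0 were held by 68 of 81 cytosolic ribosomal protein genes and 32 of 37 germline genes. The same held for 10 of 42 muscle, 66 of 154 collagen and 15 of 36 synaptic and neuronal genes. Of 154 collagen genes 1 was called higher, col-179 (median -0.11). None was called among 42 muscle genes (median -0.20, between -0.46 and 0.07 with 1 library left out), 81 cytosolic ribosomal protein genes (median 0.15), 31 proteasome subunit genes (median 0.05), 30 autophagy genes (median -0.10) or 36 synaptic and neuronal genes (median -0.11). Germline genes (37, median 0.24, between 0.08 and 0.43 with 1 library left out), oocyte and eggshell genes (30, median -0.11) and zygotic embryo genes (22, median -0.14) had no call either. In metabolism, elo-6 was the 1 call among 18 desaturase and elongase genes (median 0.09), cpt-4 the 1 call among 59 genes of fatty acid oxidation and peroxisomes (median 0.03) and ugt-18 the 1 call among 65 UDP-glucuronosyltransferase genes (median 0.05).

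**Figure D4:**
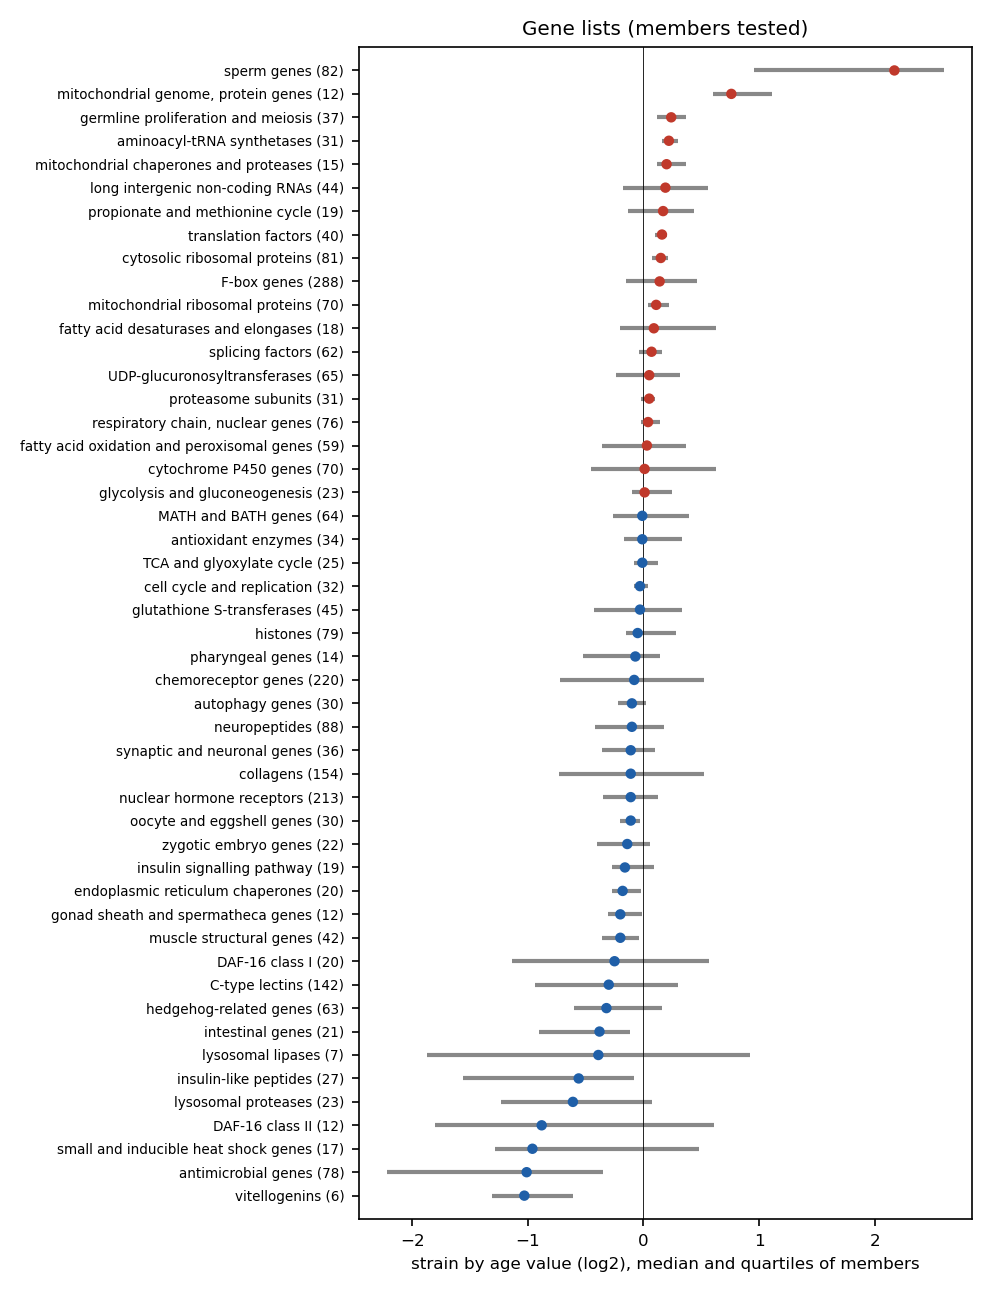
Strain by age value (log2, day 11 minus day 1, daf-2 minus N2) of the gene lists with at least 5 members tested, as the median (point) and quartiles (bar) of the members, with the number tested in brackets. Sperm genes had a median of 2.17 and mitochondrial genome genes one of 0.76, while vitellogenins and antimicrobial genes had medians of -1.03 and -1.01.

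The same contrast at earlier ages shares the day 1 libraries. At day 4 no gene was called by edgeR, with 407 genes (2.44%) at an unadjusted p under 0.05 and 4 calls by DESeq2. At day 7, 2 genes were called (0.0120%), F57H12.6 at -6.19 ± 0.94 and H39E23.3 at -8.72 ± 1.35, both with an adjusted p of 0.0172. That count was 0 without N2 day 1 library 1 or 2 or daf-2 day 1 library 3, 1 without daf-2 day 1 library 2, 5 without daf-2 day 11 library 2 and 11 without N2 day 1 library 3. Of the 58 genes called at day 11, all had the same sign at day 7. At day 4 all 14 of the higher genes and 34 of the 44 lower genes had it. The median of the 44 was -0.35 at day 4, -1.56 at day 7 and -2.28 at day 11, and that of the 14 was 0.87, 1.26 and 1.86.

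**Figure D5:**
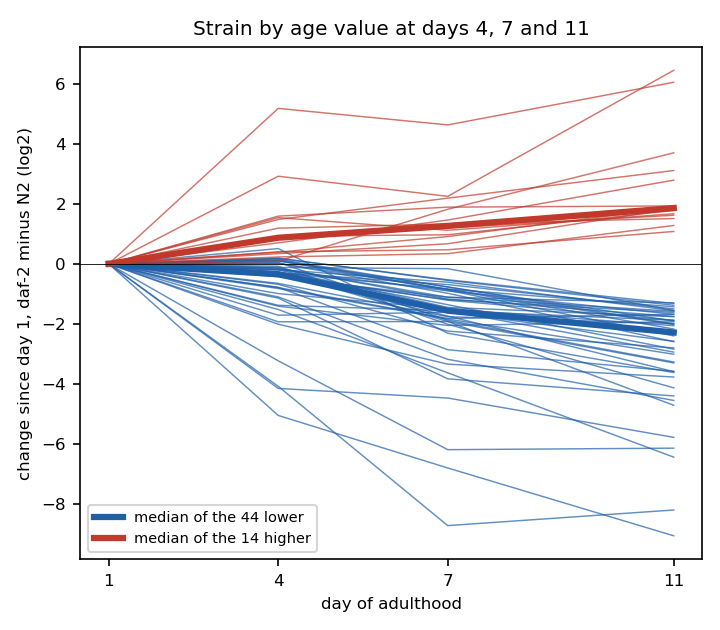
Strain by age value (change since day 1, daf-2 minus N2, log2) at days 4, 7 and 11 for the 58 genes called at day 11, 1 thin line a gene, with the medians of the 44 lower (blue) and 14 higher (red) genes as thick lines; day 1 is 0 by definition. The medians lay at -0.35, -1.56 and -2.28 for the lower genes and 0.87, 1.26 and 1.86 for the higher ones.

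Of the genes described, atic-1, col-179, pcbd-1, T15B7.1, tyr-4, K12H4.7, F55H12.4, F21H7.12 and Y54G2A.7 also overlap a gene on the other strand, so their counts carry the same doubt about strand. By position, the 58 genes lay on all 6 nuclear chromosomes. Chromosome V held 17 of its 3464 genes tested (0.491%) and chromosome III held 3 of 2472 (0.121%). Among called neighbours, ZC443.4 and ugt-18 were 373, glc-1 and F21H7.12 8247 and far-3 and F15B9.6 16621 bases apart on chromosome V, and kreg-1 and F53A9.6 were 3528 bases apart on chromosome X.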

How the data were processed

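RNA from whole worms was sequenced after ribosomal RNA depletion with a stranded total RNA kit, per the labels' protocols. The authors deposited expected counts per gene, which need not be whole (929 to 1198 values per library were not), and here they were rounded. STAR 2.7.0e, RSEM 1.3.1, WBcel235 and ce11 are named, without the role of each, per the submitters' processing notes. Of 46904 identifiers 46817 were found in the Ensembl 115 annotation, used for symbols and positions on WBcel235, while the 87 not found made up no more than 0.0089% of any library.

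Genes were filtered with edgeR 4.0.16 (filterByExpr over 8 groups) and scaled by TMM, and all 24 libraries entered 1 quasi-likelihood fit with a mean per group. Adjusted p-values are Benjamini-Hochberg over the 16698 genes, at a false discovery rate of 0.05. CPM are counts scaled by total and TMM factor, and are compared between libraries, not between genes. Standard errors were derived from the log2 change and its F statistic, as the former divided by the root of the latter. Alternatives were other scalings and filters, a fit of the 4 groups, protein-coding genes alone, a replicate block, DESeq2 1.42.0 and leaving out libraries. The code was tested on simulated data with an equal spread for all genes. There, among genes at 10 CPM or more, 4 of 100 with a 2-fold difference were called in the right direction. At 4-fold 77 of 100 were, and 2 unchanged genes were called. Most 2-fold differences would thus be missed at such a spread. That spread was the common one of the fit, a coefficient of variation of 0.273. In the data, genes at 10 CPM or more had a median standard error of 0.31, against 0.43 over all genes. The simulation therefore does not give the share missed among such genes in the data.

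For groups compared directly, deviations from the group mean were correlated between same-numbered libraries in all 12 pairs (0.13 to 0.63). This comes from the data and not from a label. For the contrast itself the check is given with the alternatives. No 2 libraries of a group agreed within sampling noise (lowest median chi-square 2.43).

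The contrast, the 49 gene lists, the other settings and the rule for naming genes were chosen with earlier results of these data known. The rule took called genes with a gene-class symbol and at least 10 CPM, up to 10 in each direction, up to 2 for each pattern over the strains and up to 3 per list, and 8 genes named throughout in studies of daf-2. All 58 called genes were then shown, and those outside the rule, with sequence names or low levels, were picked after their values were seen. No members were found for ram-4, clt-2, hsp-10, cdc-45 and pold-1. Promoter motifs were not analysed here.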

Additional observations from a re-analysis of the deposited data

Results flagged for a closer look

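The difference between the strains in the change with age was itself tested, and 14 genes had a higher change in daf-2 and 44 a lower one. Among them 7 genes were called with age in opposite directions in the strains. These were far-3 at -4.55 on the log2 scale, F57H12.6 at -6.14, ins-10 at -3.59, lipl-3 at -3.30, K10D11.6 at -1.90, glc-1 at -1.50 and Y51A2A.4 at 6.45. The value of Y51A2A.4 was fitted against a group at 0 counts and is no bound. In 6 of the 7 N2 rose and daf-2 fell, and in Y51A2A.4 the directions were the other way round. With 1 library left out, far-3 and F57H12.6 were called in all 12 fits, while K10D11.6 was called in 9, ins-10 in 3, glc-1 and lipl-3 in 2 and Y51A2A.4 in 1.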

How the results depend on the processing

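All 58 genes kept their direction under every alternative in which they were tested. The alternatives used the same libraries or part of them, so this only describes the 58. The number called was 54 with RLE scaling, 47 with upper-quartile scaling, 59 with library size alone, 39 without a count filter, 58 at 1 CPM in 3 libraries and 50 for protein-coding genes alone. It was 18 in a fit of the 4 groups (4 higher, 14 lower, 15 of the 58), 169 with DESeq2 (41 and 128, with all 58) and 140 without the libraries numbered 3 (30 and 110). With no count filter 6 were higher. Leaving out 1 library gave 19 to 99 calls, 2 to 11 higher and 13 to 88 lower. In those fits 14 of the 58 were called in all 12, 23 in at least 6 and asp-1 in none. For the contrast over 4 groups, 16 of 18 same-numbered pairs of libraries had a correlation above 0.1 (-0.06 to 0.63) and 11 of 12 libraries correlated best with their own number, a hint from the data. The replicate block gave 260 calls (62 higher, 198 lower), all 58 among them, and tts-1 at an adjusted p of 0.0404.

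The strains differed at day 1 for 191 genes in the fit of the 4 groups, 663 with the replicate block and 168 to 326 with 1 library left out. At day 11 the count was 1615 with the replicate block, 1002 with DESeq2, 1000 without the libraries numbered 3 and 381 to 790 with 1 library left out. Change with age gave 5568 to 7417 calls in N2 and 5214 to 7151 in daf-2 with 1 library left out. It gave 9491 calls in N2 and 9487 in daf-2 with the replicate block, and 8968 and 8907 without the libraries numbered 3. At day 4 DESeq2 called 4 and leaving out 1 library 0. At day 7 the count was 5 with library size alone, 30 with the replicate block, 45 with DESeq2, 4 without the libraries numbered 3 and 0 to 11 with 1 library left out. Values of genes not called changed sign. That of daf-16 was -0.28 without the libraries numbered 3 and, with 1 library left out, -0.23 to 0.54. With 1 library left out sod-3 ranged from -0.27 to 0.34, mtl-1 from -0.31 to 1.37 and hsp-16.2 from -3.98 to 0.78. The median of the small and inducible heat shock genes, -0.96, ranged from -1.05 to 0.27. The causes were not tested. The spread between 3 libraries limits the contrast, with a median standard error of 0.31 for the 7893 genes at 10 CPM or more and 0.43 over all.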

Other observations

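Purine synthesis genes were looked at after atic-1 was seen among the genes called, so their values are a description. The pathway builds the purine ring from a sugar phosphate, and atic-1 encodes its last enzyme. In N2 paic-1 fell by 1.89 on the log2 scale (adjusted p = 5.42e-06) and pfas-1 fell by 1.01 (adjusted p = 0.0142), while their changes in daf-2 were -0.37 (adjusted p = 0.22) and 0.12 (adjusted p = 0.791). The strain by age values were 1.52 ± 0.34 for paic-1 (adjusted p = 0.0572) and 1.12 ± 0.44 for pfas-1 (adjusted p = 0.467). Neither was called in the fit without a replicate block, and for paic-1 that depended on the fit. The first enzyme of the pathway, ppat-1, fell in both strains, by 2.68 in N2 and by 2.29 in daf-2, with a difference of 0.39 ± 0.34 (adjusted p = 1). adsl-1, gmps-1 and adss-1, which act within or after the pathway, had differences of 0.29, 0.31 and 0.04.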
